A study of Arabidopsis thaliana with 9 samples.

Results

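Wild type siliques of Arabidopsis thaliana were compared with siliques of both lines in which SCL15 had been altered, pooled: 3 wild type libraries were set against the mean of 2 group means, those of 3 scl15 knockout libraries and 3 Napin:SCL15 libraries. All 9 libraries of the study and all 33602 genes of its table entered, and 16555 genes that averaged 1 TPM or more were tested. TPM are shares of a library's transcripts corrected for gene length. The comparison asks which transcripts stood apart from wild type in the same direction when SCL15 was lowered and when it was raised. Since a gene that changed in 1 line alone can also pass such a test, a gene is described here as lower or higher in both lines only when the pooled contrast and each line's own contrast were all past an adjusted p of 0.05 with the same sign. Both lines were set against the same 3 wild type libraries, so a low or high wild type value enters both contrasts.

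The plants were grown in a greenhouse, and siliques, the seed pods with the seeds inside them, were taken 12 days past anthesis. Wild type plants had the Columbia background. Per the labels, the knockout plants lack a functional scl15 gene, and the Napin:SCL15 plants overexpress SCL15 in seeds, driven by the promoter of a seed storage protein, napin. The labels do not give the allele, the number of independent transformants or where the knockout is disrupted. Each group had 3 libraries labelled as biological replicates, and the number of plants behind a library is not stated, so p-values here reflect library-to-library spread, which may be technical.

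SCL15 belongs to the GRAS proteins, plant transcription regulators that include the DELLA repressors of gibberellin response and the SCARECROW proteins. It is known for repressing seed maturation genes in vegetative tissue. Background is given here for 3 kinds of plant biology described at length below. Their lists (jasmonate response, glucosinolate breakdown and pollen) held 5, 4 and 11 of the 243 genes lower in both lines. Jasmonate is a fatty acid derived hormone of wounding and insect defence, which releases the transcription factor MYC2 from JAZ repressors, and vegetative storage proteins are classical late targets of it. Glucosinolates are sulfur compounds of the cabbage family that myrosinases break down after damage, while specifier proteins decide whether nitriles or isothiocyanates are formed. Pollen carries many enzymes that act on pectin, the gel of the plant cell wall through which pollen tubes grow.

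The libraries had 19679 to 21855 genes with any signal. TPM keep no read totals, so the depth behind single values is unknown. Seed storage protein transcripts, the defining load of maturing seeds, made up 30.1% to 32.0% of wild type, 32.1% to 33.0% of knockout and 40.8% to 45.4% of overexpression libraries. All 11 listed markers of the silique wall passed the level filter. Because TPM are shares, a larger storage share leaves less for other genes, but its part in the medians below was not tested. The median log2 change of all genes tested was -0.28 in the Napin:SCL15 line and 0.10 in scl15 as deposited. After median-ratio scaling, which sets each library to the median gene, these medians were -0.00 and 0.01. The median of the pooled contrast was -0.09 as deposited and 0.00 after that scaling.

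SCL15 (AT4G36710) itself stood at 14.4, 16.2 and 10.7 TPM in wild type, at 6.31, 6.39 and 4.82 TPM in scl15 and at 526, 569 and 556 TPM in the Napin:SCL15 line. The knockout libraries all lay below wild type and the overexpression libraries all above it, as the labels say. The altered lines averaged 264 TPM more than wild type, which the exact two-sided permutation test over 84 assignments did not separate (p = 0.393, smallest possible 0.0119), and each line alone gave p = 0.1, the smallest that 3 against 3 libraries allow. The pooled log2 change of SCL15 was 2.07 (SE 0.13, limma adjusted p = 8.4e-07), with -1.102 in scl15 and 5.24 in the Napin:SCL15 line. SCL15 was therefore called in the pooled contrast although its lines moved in opposite directions.

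Shared changes were mostly falls. The pooled contrast called 748 genes, 4.52% of those tested, of which 655 (3.96%) were lower and 93 (0.562%) higher in the altered lines (limma, Benjamini-Hochberg adjusted p of 0.05). Of these, 252 genes (1.52% of genes tested) moved alike in both lines: 243 were lower (1.47%) and 9 higher (0.0544%). A further 284 pooled calls rested on the knockout alone, 181 on the Napin:SCL15 line alone and 31 on lines called in opposite directions. For 233 of the 243 falls every wild type library lay above all 6 altered libraries, against 4.51% of all genes tested, and for all 9 rises every wild type library lay below them, against 0.350%. Because the call used the same values, these counts describe the members and test nothing further.

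The shared falls were moderate in size. Their median log2 change was -0.83 in the pooled contrast, -0.86 in scl15 and -0.75 in the Napin:SCL15 line. Their median wild type level was 21.7 TPM, against 8.23 TPM over all genes tested, and 37 of the 243 had a wild type mean below 5 TPM. The falls were called for a higher wild type level, on a scale that shrinks changes of low genes. These medians are therefore a description only. In 50 falls and 1 rise both lines changed by at least 2-fold on the log2(TPM + 1) scale, and in 4 falls by at least 4-fold. The genes just inside the rule were COX3_1, AT3G01950 and TPS02, whose weakest adjusted p was 0.0497, 0.04996 and 0.04999, and those just outside were AT3G16150 (0.0501), PSK5 (0.0503) and AT3G50350 (0.0507).

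The balance of falls and rises depended on scaling. After median-ratio scaling 86 genes were lower (0.519%) and 20 higher (0.121%) in both lines, and 77 falls and 8 rises were called under both scalings. Without wild type replicate 1 the number of genes called in both lines was 129 instead of 252, without wild type replicate 2 it was 135 and without overexpression replicate 2 it was 164. For the pooled contrast, leaving out wild type replicate 1 gave 328 genes and leaving out replicate 2 gave 327. The genes named below as the largest shared changes were chosen from those called under both scalings with wild type wholly outside the altered libraries. Neither trait is therefore a result about them.

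**Figure D1:**
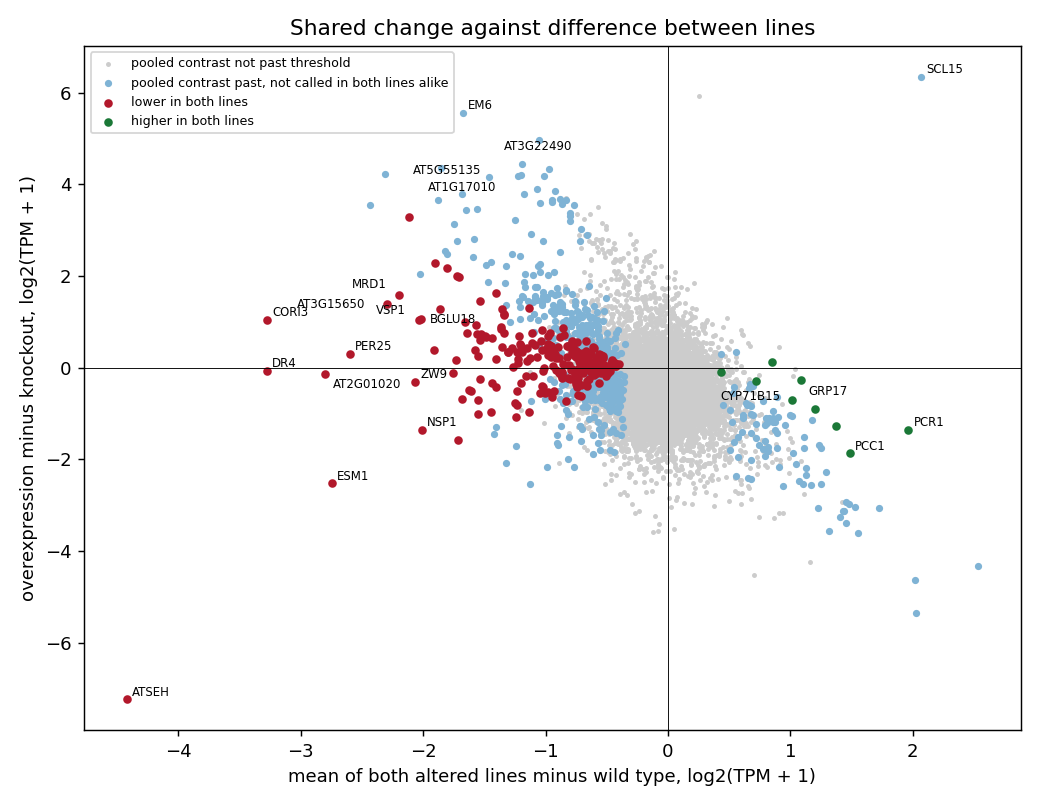
Each point is 1 of 16555 tested genes, with the mean of both altered lines minus wild type on the horizontal axis and overexpression minus knockout on the vertical axis, both on the log2(TPM + 1) scale. Red genes (243) were lower and green genes (9) higher in both lines; DR4 lies on the horizontal zero line at -3.28, whereas EM6 and SCL15 were called in the pooled contrast with lines that moved in opposite directions.

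Genes of the jasmonate response gave some of the largest shared falls. Of 25 tested list members, 7 were lower in the pooled contrast (3.96% of all genes tested) and none was higher, and 5 were lower in both lines (1.47% of all genes tested): CORI3, VSP1, VSP2, JR1 and CYP94B3. The other 20 were not, among them the JAZ repressors and MYC2, and 3 further listed genes (THI2.1, PDF1.2 and ORA59) lay below the level filter. The list's median pooled log2 change was -0.31, against -0.09 over all genes tested. After median-ratio scaling 4 members were lower in both lines, all but CYP94B3. Without wild type replicate 2 the pooled contrast called 4 members.

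The windows of 250 bases before the annotated starts of the 3 most abundant of these genes are shown because these genes fell together. They are RefSeq sequence of TAIR10.1, read 5′ to 3′ on the gene's strand, and capitals mark matches to CACGTG (the G-box) or AACGTG, sites of the kind MYC2 binds, on either strand.
VSP1, chr5:8509202-8509451, minus strand: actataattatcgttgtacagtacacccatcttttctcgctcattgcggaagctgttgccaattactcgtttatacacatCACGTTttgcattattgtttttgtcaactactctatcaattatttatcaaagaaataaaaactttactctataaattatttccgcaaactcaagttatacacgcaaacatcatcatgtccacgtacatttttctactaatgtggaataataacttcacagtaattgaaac
VSP2, chr5:8502225-8502474, minus strand: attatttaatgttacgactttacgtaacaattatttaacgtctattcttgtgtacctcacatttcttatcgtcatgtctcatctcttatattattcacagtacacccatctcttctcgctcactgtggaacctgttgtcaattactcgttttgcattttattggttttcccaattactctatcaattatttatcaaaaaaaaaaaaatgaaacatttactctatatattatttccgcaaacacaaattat
CORI3, chr4:12310129-12310378, plus strand: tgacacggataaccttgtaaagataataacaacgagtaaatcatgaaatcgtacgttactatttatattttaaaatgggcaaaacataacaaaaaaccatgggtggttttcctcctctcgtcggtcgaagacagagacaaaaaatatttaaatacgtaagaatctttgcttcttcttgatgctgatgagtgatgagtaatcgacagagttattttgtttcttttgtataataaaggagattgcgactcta
The windows of VSP1 and VSP2, which neighbour each other on chromosome 5, share a run of 23 bases, tactctatcaattatttatcaaa, starting at base 109 of the VSP1 window and base 175 of the VSP2 window. The longest run that CORI3 shares with VSP1 has 8 bases and with VSP2 9 bases. Only the VSP1 window held a match, AACGTG read on the other strand. Over all 16396 promoter windows of tested genes, 7.79% held AACGTG and 8.03% held CACGTG. Among 242 windows of genes lower in both lines the shares were 14.05% and 9.50%, and among the 77 falls called under both scalings 19.5% and 5.19%. Within the jasmonate response list, 1 of the 5 genes lower in both lines held either motif, against 8 of the other 20 tested. These shares were not tested, and a match describes letters only.

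CORI3 (AT4G23600), a cystine lyase induced by coronatine and jasmonate, stood at 234, 228 and 145 TPM in wild type, at 12.4, 13.8 and 13.8 TPM in scl15 and at 30.5, 33.3 and 23.0 TPM in the Napin:SCL15 line. All 6 altered libraries lay far below the lowest wild type library, and the knockout was the lower line. The pooled log2 change was -3.27 (SE 0.16, limma adjusted p = 6.8e-08).

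VSP1 (AT5G24780) and VSP2 (AT5G24770) encode vegetative storage proteins related to acid phosphatases. VSP1 measured 778, 868 and 578 TPM in wild type, 112, 137 and 122 TPM in scl15 and 246, 261 and 262 TPM in the Napin:SCL15 line. VSP2 was the more abundant, with 2369, 2476 and 1680 TPM in wild type, 555, 698 and 577 TPM in scl15 and 935, 1015 and 950 TPM in the Napin:SCL15 line. In both genes all 6 altered libraries lay below wild type, and the knockout below the Napin:SCL15 line. The pooled log2 changes were -2.03 for VSP1 (SE 0.12, limma adjusted p = 7.7e-07) and -1.48 for VSP2 (SE 0.14, limma adjusted p = 2.9e-05). The proteins are close relatives, and reads shared between their transcripts would make the separate values uncertain.

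JR1 (AT3G16470), a jacalin-type lectin, fell from 8.55, 10.2 and 7.80 TPM in wild type to 1.83, 2.81 and 1.68 TPM in scl15 and 2.17, 3.04 and 2.84 TPM in the Napin:SCL15 line. All altered libraries lay below wild type (pooled log2 change -1.55, SE 0.16, limma adjusted p = 9.5e-05). The line difference of JR1 was 0.26 (SE 0.19, limma adjusted p = 0.27) as deposited and 0.56 after median-ratio scaling, where it was called (limma adjusted p = 0.040). CYP94B3, which inactivates jasmonoyl isoleucine, was lower by a smaller amount, with means of 3.87 TPM in wild type, 2.13 TPM in scl15 and 2.06 TPM in the Napin:SCL15 line (pooled log2 change -0.65, SE 0.16, limma adjusted p = 0.032). JAZ10 and CLH1 made up the 7 pooled calls, but each moved in 1 line: JAZ10 changed by -1.12 in scl15 and -0.18 in the Napin:SCL15 line, and CLH1 by -0.07 and -1.14.

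MYC2 averaged 113 TPM in wild type, 139 TPM in scl15 and 76.8 TPM in the Napin:SCL15 line, with a pooled log2 change of -0.11 (SE 0.12, limma adjusted p = 0.71). Of 15 listed synthesis genes 4 lay below the level filter, and none of the 11 tested was called in the pooled contrast as deposited. Leaving out wild type replicate 3 gave 2 lower in the pooled contrast, and leaving out knockout replicate 2 gave 2, of which 1 was lower in both lines. Rescaling without ribosomal RNA and organelle genes gave 4 and 1. Their median was -0.31, and LOX2, the chloroplast lipoxygenase, came nearest: 300, 350 and 241 TPM in wild type, 174, 240 and 142 TPM in scl15 and 221, 248 and 170 TPM in the Napin:SCL15 line, of which 1 library lay within the wild type range, with a pooled log2 change of -0.59 (SE 0.17, limma adjusted p = 0.067). PED1, a thiolase of peroxisomal beta-oxidation and the most abundant member, changed by -0.22 (SE 0.11, limma adjusted p = 0.33).

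Several genes of the glucosinolate breakdown list were lower in both lines, and the myrosinase TGG1 was not. Of 14 tested members, 6 were lower (3.96% of all genes tested) and 1 higher (0.562%) in the pooled contrast, and 4 were lower in both lines (1.47%): ESM1, NSP1, PBP1 and NIT3. After median-ratio scaling ESM1, NSP1 and PBP1 were still lower in both, and NIT3 was not (limma adjusted p = 0.19 in the Napin:SCL15 line). The median pooled change of the list was -0.54, against -0.09 over all genes tested. Among 8 listed members under the level filter, 5 had a higher mean in wild type than in either line.

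ESM1 (AT3G14210), the epithiospecifier modifier, which favours isothiocyanates over nitriles, stood at 39.5, 32.2 and 29.4 TPM in wild type, at 11.2, 9.97 and 13.0 TPM in scl15 and at 1.55, 0.929 and 1.01 TPM in the Napin:SCL15 line. The 3 groups did not overlap, and the Napin:SCL15 line was lowest (pooled log2 change -2.75, SE 0.14, limma adjusted p = 1.8e-07). NSP1 (AT3G16400), a nitrile specifier protein, took the same order, with 34.7, 26.0 and 31.05 TPM in wild type, 10.9, 12.0 and 11.4 TPM in scl15 and 3.39, 3.35 and 5.04 TPM in the Napin:SCL15 line. Its pooled log2 change was -2.01 (SE 0.14, limma adjusted p = 1.9e-06). Among the relatives of NSP1, NSP3 and NSP4 lay below the level filter. NSP2 moved in opposite directions, by -1.95 in scl15 and 0.83 in the other line.

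PBP1 (AT3G16420), a lectin that binds the beta-glucosidase PYK10, measured 6.16, 4.59 and 5.52 TPM in wild type, 1.75, 2.32 and 0.765 TPM in scl15 and 0.494, 0.946 and 0.357 TPM in the Napin:SCL15 line. It lay below wild type in all 6 altered libraries (pooled log2 change -1.68, SE 0.21, limma adjusted p = 4.0e-04), although PYK10 itself was listed at a mean of 0.19 TPM or less in each group. NIT3, a nitrilase, averaged 28.0 ± 5.37 TPM in wild type, 14.1 ± 2.94 TPM in scl15 and 16.6 ± 0.294 TPM in the Napin:SCL15 line (SD, n = 3).

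The myrosinase TGG1 was higher in the pooled contrast through the knockout alone, where it averaged 173 TPM, against 52.9 TPM in wild type and 51.1 TPM in the Napin:SCL15 line. Of 23 tested genes of glucosinolate synthesis and transport 1 was lower in the pooled contrast (3.96% of all genes tested) and none was lower in both lines. The pooled count was 0 without wild type replicate 1 or 2 or knockout replicate 1, 2 without wild type replicate 3 and 3 without knockout replicate 2. MAM1, which lengthens the methionine side chain, averaged 783 TPM in wild type, 890 TPM in scl15 and 720 TPM in the Napin:SCL15 line, with a pooled log2 change of 0.02 (SE 0.13, limma adjusted p = 0.96). BCAT4, the aminotransferase before it, changed by 0.11 (SE 0.12, limma adjusted p = 0.71).

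**Figure D2:**
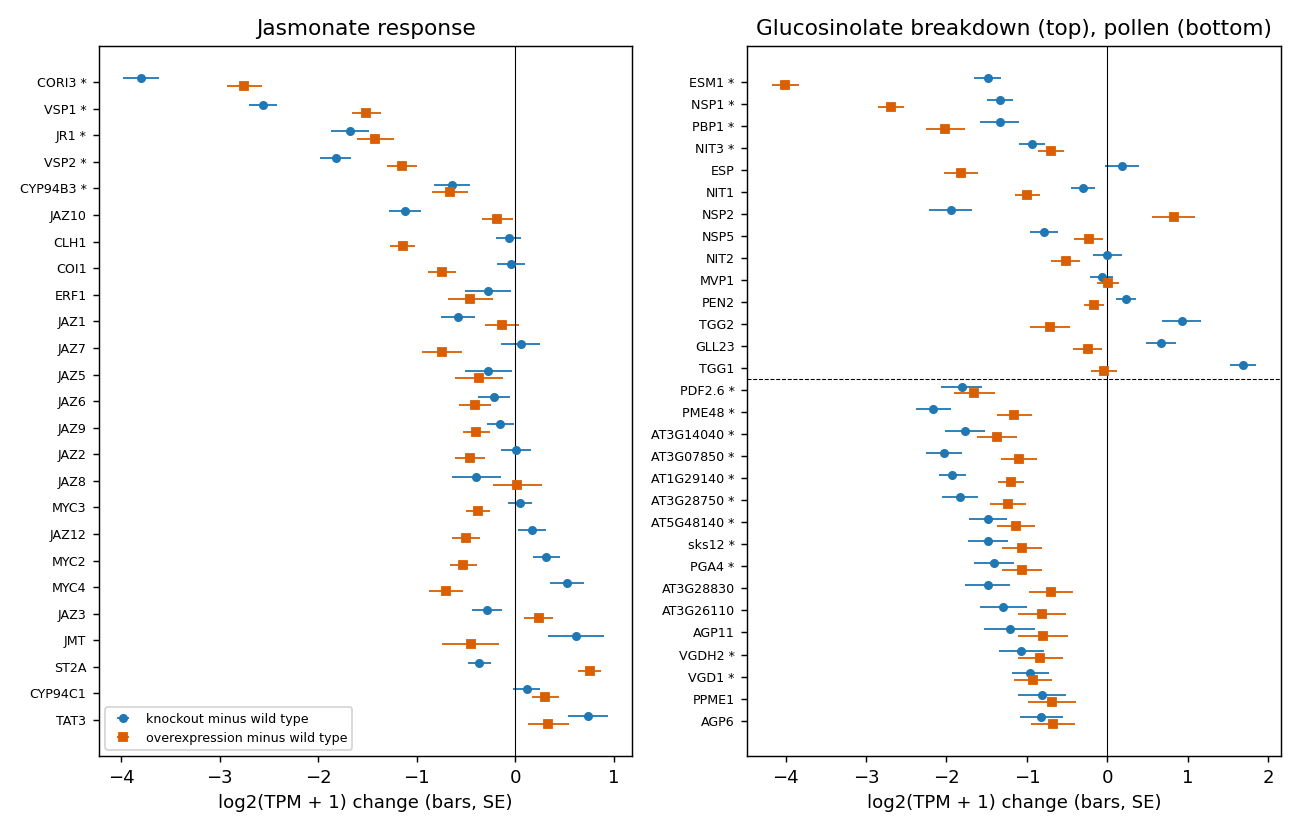
Log2(TPM + 1) change against wild type in scl15 (circles) and the Napin:SCL15 line (squares) for tested members of 3 lists, with bars of 1 SE; an asterisk marks genes lower in both lines. In the left panel 5 of 25 jasmonate response genes carry an asterisk, led by CORI3 at -3.80 and -2.75. In the right panel 4 of 14 glucosinolate breakdown genes and 11 of 16 tested pollen genes do, against 1.47% of all genes tested. Pollen members were chosen partly for their fall, so their count supports nothing.

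The largest pooled change among the shared falls was that of ATSEH (AT2G26740), a soluble epoxide hydrolase, an enzyme that opens fatty acid epoxides. It stood at 310, 372 and 269 TPM in wild type, at 163, 217 and 164 TPM in scl15 and at 0, 0.409 and 0.232 TPM in the Napin:SCL15 line. The gene was thus almost undetected in the Napin:SCL15 line and retained 57.2% of the wild type mean in scl15, whose libraries all lay below wild type. Its pooled log2 change was -4.42 (SE 0.14, limma adjusted p = 7.2e-10). This was the mean of -0.80 in scl15 and -8.04 in the Napin:SCL15 line, so most of it came from the Napin:SCL15 line. With a pseudocount of 0.1 TPM the knockout change of ATSEH was no longer called (limma adjusted p = 0.248).

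DR4 (AT1G73330), named as a drought-repressed gene and related to Kunitz-type protease inhibitors, fell evenly. Its levels were 102, 107 and 86.0 TPM in wild type, 10.6, 13.1 and 5.91 TPM in scl15 and 6.97, 9.40 and 11.0 TPM in the Napin:SCL15 line. The 2 altered lines overlapped with each other and lay far below wild type, at 10.1% and 9.28% of its mean. The pooled log2 change was -3.28 (SE 0.20, limma adjusted p = 6.7e-07), and the line difference of -0.06 (SE 0.23) was not past the threshold (limma adjusted p = 0.83). KTI1, a Kunitz trypsin inhibitor, was also lower in both lines, at 53.9 ± 8.28 TPM in wild type, 22.8 ± 2.49 TPM in scl15 and 32.3 ± 3.89 TPM in the Napin:SCL15 line (SD, n = 3). The overexpression change of KTI1 was not called after median-ratio scaling (limma adjusted p = 0.157). Of 7 listed inhibitor relatives 3 were tested, and the remaining one, AT1G17860, changed by 1.08 in scl15 and -0.39 in the Napin:SCL15 line.

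PER25 (AT2G41480), a secreted peroxidase of the class that acts on cell wall polymers, fell from 20.1, 24.8 and 14.7 TPM in wild type to 1.93, 1.98 and 2.22 TPM in scl15 and 2.32, 3.44 and 2.595 TPM in the Napin:SCL15 line. All altered libraries lay far below wild type, with a pooled log2 change of -2.597 (SE 0.17, limma adjusted p = 9.0e-07). After median-ratio scaling PER25 differed between the lines by 0.61 (limma adjusted p = 0.032), a difference not called as deposited. BGLU18 (AT1G52400), a beta-glucosidase that releases abscisic acid from its glucose ester, measured 19.9, 20.1 and 14.2 TPM in wild type, 2.09, 2.14 and 2.51 TPM in scl15 and 5.16, 5.82 and 6.19 TPM in the Napin:SCL15 line. The 3 groups did not overlap, and the pooled log2 change was -2.02 (SE 0.14, limma adjusted p = 2.3e-06).

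Several of the largest falls were in genes of less known function. AT3G15650, an alpha/beta hydrolase by its deposited description, fell from 15.6, 18.3 and 11.3 TPM in wild type to 0.952, 0.945 and 1.08 TPM in scl15 and 5.44, 4.93 and 2.67 TPM in the Napin:SCL15 line. MRD1 (AT1G53480), named for its fall in a methionine overproducing mutant, measured 7.80, 5.09 and 8.88 TPM in wild type, 0, 0 and 0.0508 TPM in scl15 and 1.51, 2.54 and 2.22 TPM in the Napin:SCL15 line. ZW9 (AT1G58270), a TRAF-like protein, measured 7.505, 6.29 and 4.06 TPM in wild type, 0.581, 0.588 and 1.36 TPM in scl15 and 0.384, 0.440 and 0.544 TPM in the Napin:SCL15 line. All 3 genes lay below wild type in every altered library, and AT3G15650 and MRD1 were lowest in scl15. Their pooled log2 changes were -2.29, -2.20 and -2.07 (SE 0.19, 0.19 and 0.20).

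A ribosomal RNA row was also among the largest falls. AT2G01020 stood at 2078, 4032 and 5216 TPM in wild type, at 469, 287 and 1099 TPM in scl15 and at 278, 1002 and 405 TPM in the Napin:SCL15 line. The altered libraries lay below wild type but differed by severalfold among themselves (pooled log2 change -2.80, SE 0.42, limma adjusted p = 0.0015). The 4 nuclear rows described as ribosomal RNA made up 6.19% to 7.83% of wild type, 4.00% to 5.90% of knockout and 3.53% to 6.62% of overexpression libraries, so their summed share overlapped between wild type and the Napin:SCL15 line. The labels name both an mRNA and a total RNA library kit without saying which library was made with which, and the part of library preparation in this value was not tested.

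**Figure D3:**
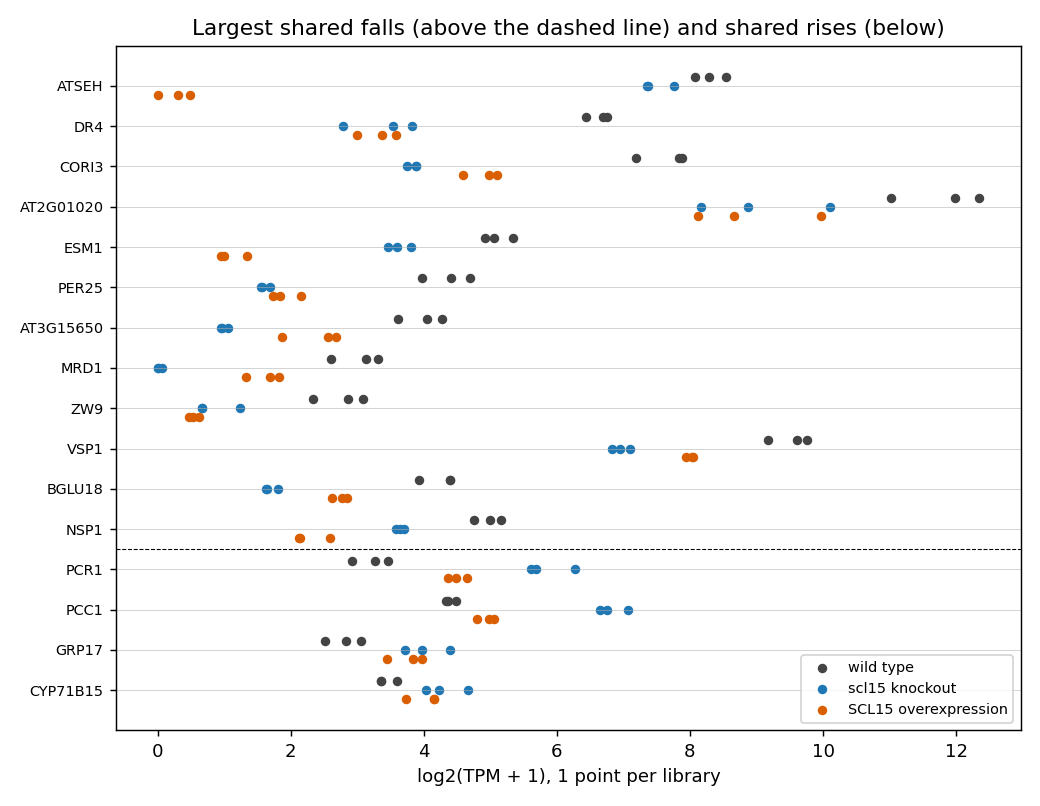
Log2(TPM + 1) in each of the 9 libraries for the 12 largest shared falls (above the dashed line) and the 4 rises called under both scalings with at least 5 TPM on the higher side; black points are wild type, blue the knockout and orange the Napin:SCL15 line. The genes were chosen so that the wild type points lie wholly above (falls) or below (rises) all altered points. ATSEH in the Napin:SCL15 line stands at 0 to 0.409 TPM.

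Summed transcripts of 34 pollen genes were lower in every altered library than in any wild type library. The list, which leaves out GRP17, a pollen coat gene higher in both lines, was assembled after several of the falls had been seen. This is therefore a description, and no test was made of the list. Its summed level was 82.6, 83.1 and 124 TPM in wild type, 18.18, 16.29 and 31.33 TPM in scl15 and 36.6, 29.2 and 43.7 TPM in the Napin:SCL15 line. Replicate 3 was the highest library of each group. Over all 34 members, 29 had their highest mean in wild type, among them 13 of the 18 under the level filter. Of the 16 that passed it 11 were called lower in both lines (1.47% of all genes tested), or 8 after median-ratio scaling, but members were chosen partly for their fall and mostly passed the filter through their wild type level, so these counts support nothing. In whole siliques, fewer cells of a type and less RNA per cell cannot be told apart. The sperm cell markers MGH3 and DUO1 were at or near 0 throughout: MGH3 was listed at 0 in all libraries and DUO1 averaged 0.0328 TPM in scl15 and 0 in both other groups.

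PME48 (AT5G07410), a pectin methylesterase of pollen, measured 10.4, 10.4 and 14.6 TPM in wild type, 2.00, 1.57 and 1.90 TPM in scl15 and 5.45, 2.95 and 6.15 TPM in the Napin:SCL15 line. Its 3 groups did not overlap (pooled log2 change -1.66, SE 0.19, limma adjusted p = 1.8e-04). AT3G07850, of the pectin lyase-like family that includes polygalacturonases, stood at 8.60, 7.52 and 8.96 TPM in wild type, at 0.915, 1.09 and 1.99 TPM in scl15 and at 3.15, 2.37 and 4.89 TPM in the Napin:SCL15 line. AT3G14040, of the same family, averaged 5.77 ± 1.69 TPM in wild type, 1.02 ± 0.674 TPM in scl15 and 1.56 ± 0.19 TPM in the Napin:SCL15 line (SD, n = 3). PDF2.6, a defensin-like peptide, averaged 2.85 ± 1.33 TPM in wild type, 0.0608 ± 0.105 TPM in scl15 and 0.183 ± 0.109 TPM in the Napin:SCL15 line (SD, n = 3). In each of these genes the highest altered library lay below the lowest wild type library.

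**Figure D4:**
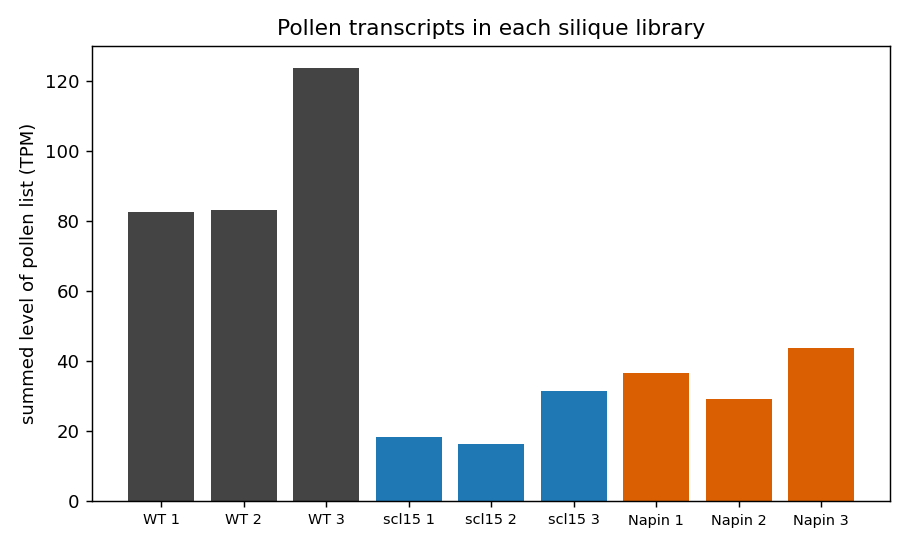
Summed TPM of the 34 listed pollen genes in each library (bars), with wild type in black, the knockout (scl15) in blue and the Napin:SCL15 line (Napin) in orange. The wild type bars run from 82.6 to 124 TPM, above all altered bars, the highest of which is 43.7 TPM.

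Shared rises were few. PCR1 (AT1G14880), a membrane protein of cadmium resistance, rose from 10.02, 8.65 and 6.57 TPM in wild type to 48.0, 76.2 and 50.7 TPM in scl15 and 21.3, 19.6 and 24.1 TPM in the Napin:SCL15 line. The knockout was highest and no groups overlapped (pooled log2 change 1.96, SE 0.16, limma adjusted p = 8.6e-06). PCC1 (AT3G22231), a small protein controlled by pathogens and the circadian clock, measured 21.4, 19.6 and 19.2 TPM in wild type, 98.8, 133 and 107 TPM in scl15 and 30.7, 32.2 and 26.8 TPM in the Napin:SCL15 line. Most of its pooled log2 change of 1.48 (SE 0.11, limma adjusted p = 5.0e-06) came from the knockout, where the change was 2.42, against 0.55 in the Napin:SCL15 line.

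GRP17 (AT5G07530), a glycine-rich oleosin of the pollen coat, rose from 4.71, 6.13 and 7.36 TPM in wild type to 14.6, 20.1 and 12.2 TPM in scl15 and 9.93, 13.3 and 14.6 TPM in the Napin:SCL15 line. It was thus higher in both lines (pooled log2 change 1.09, SE 0.18, limma adjusted p = 0.0024). CYP71B15 (AT3G26830), also called PAD3, the last enzyme of camalexin synthesis, measured 9.23, 11.1 and 9.30 TPM in wild type, 17.77, 24.4 and 15.4 TPM in scl15 and 12.3, 16.7 and 16.7 TPM in the Napin:SCL15 line. Its pooled log2 change of 0.72 (SE 0.15, limma adjusted p = 0.015) was no longer called without wild type replicate 1 (limma adjusted p = 0.0896) or wild type replicate 3 (limma adjusted p = 0.0567), and its overexpression change was not called in 6 of 20 alternatives.

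The other 5 rises were WRKY38, WRKY58, AT2G44240, DOF3.4 and AT3G47800, which are named because they complete the 9. WRKY38, a transcription factor of salicylate defence, averaged 0.628 TPM in wild type, 5.56 TPM in scl15 and 1.67 TPM in the Napin:SCL15 line. WRKY58 averaged 1.72, 6.03 and 3.37 TPM in the same order, and DOF3.4, a transcription factor tied to the cell cycle, 1.42, 3.19 and 3.499 TPM. Of the 9 rises only AT3G47800, a galactose mutarotase-like protein, was not called after median-ratio scaling. In the salicylate and defence list, which does not hold WRKY38, PCC1 or CYP71B15, 3 of 15 tested genes were higher in the pooled contrast (0.562% of all genes). These were PAD4, ACD6 and WRKY54, each through the knockout. As deposited none was higher in both lines, while 9 were higher in scl15 (9.18% of all genes). Without wild type replicate 1 or without replicate 3 the pooled count was 1. After median-ratio scaling, or without wild type replicate 2, it was 4, and 1 gene was higher in both lines. Quantile normalization gave 5 and 1. PR2, a beta-1,3-glucanase, measured 313, 462 and 272 TPM in wild type, 601, 828 and 523 TPM in scl15 and 398, 427 and 412 TPM in the Napin:SCL15 line, so its altered libraries overlapped wild type (pooled log2 change 0.59, SE 0.17, limma adjusted p = 0.060).

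Of the 252 genes called in both lines, 78 also differed between the lines, while overexpression minus knockout was called for 49.2% of all genes tested, 43.1% lower in the Napin:SCL15 line. Among the falls, 51 were lower in scl15 than in the Napin:SCL15 line, 22 were lower in the Napin:SCL15 line and 170 were not called. All 5 rises with a called difference were higher in scl15. Without wild type replicate 1 the 78 became 48, without overexpression replicate 1 48 and without overexpression replicate 2 49. Some large shared falls differed in order. CORI3, VSP1 and VSP2 of the jasmonate response were lowest in scl15, with called differences of 1.05, 1.05 and 0.67. ESM1, NSP1 and PBP1 of glucosinolate breakdown were lowest in the Napin:SCL15 line, with -2.52, -1.36 and -0.68. Median-ratio scaling moved the median line difference of all genes from -0.38 to -0.01. The signs for these genes were then the same, and the difference for PBP1 was no longer called (limma adjusted p = 0.18). The order does not describe the whole lists: NIT3, also of glucosinolate breakdown, had its lower mean in scl15. As deposited, the median log2 change of the jasmonate response list was -0.22 in scl15 and -0.46 in the Napin:SCL15 line. For glucosinolate breakdown the medians were -0.19 and -0.61.

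Many listed genes passed the pooled contrast through 1 line only. In the phosphate starvation list 13 of 22 tested genes were lower in the pooled contrast (3.96% of all genes). By line, however, 16 were lower in scl15 (6.31% of all genes) and 3 in the Napin:SCL15 line (23.4% of all genes). Its median log2 change was -1.09 in scl15 and -0.05 in the Napin:SCL15 line, where the median of all genes was -0.28. MGD2, which makes galactolipids under phosphate shortage, and PAP17, a purple acid phosphatase, were the 2 members lower in both lines (1.47% of all genes). MGD2 measured 7.56, 9.13 and 7.07 TPM in wild type, 2.90, 2.105 and 2.54 TPM in scl15 and 5.89, 5.83 and 3.47 TPM in the Napin:SCL15 line. Neither gene was called in the Napin:SCL15 line after median-ratio scaling (limma adjusted p = 0.434 and 0.825), and the pooled count was then 7, or, with wild type replicate 1 or replicate 2 left out, 6 or 5. Leaving out any of knockout replicate 1, overexpression replicates 2 and 3, or wild type replicates 1 and 2 left no member lower in both lines.

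Anthocyanin genes behaved alike: 6 of 15 tested flavonoid genes were lower in the pooled contrast, against 3.96% of all genes tested (DFR, LDOX, UF3GT, UGT75C1, GSTF12 and CHI), all called in scl15 and none in the Napin:SCL15 line. That count was 3 after median-ratio scaling or quantile normalization, 1 among genes averaging 5 TPM or more, 3 when wild type replicate 1 was left out and 1 when replicate 2 was. TT7, the flavonoid 3'-hydroxylase, was the 1 member higher in the pooled contrast (log2 change 0.43, SE 0.11, limma adjusted p = 0.039), a call made from the Napin:SCL15 line and lost in 7 of the 9 fits that left out a library. In the iron list NAS3 and NAS1, both nicotianamine synthases, were lower in the pooled contrast through different lines: NAS3 averaged 13.9 TPM in wild type and 0.872 TPM in scl15, and NAS1 21.9 TPM in wild type and 3.43 TPM in the Napin:SCL15 line. FER1, a ferritin that stores iron, was the 1 iron gene lower in both, at 50.6 ± 3.52 TPM in wild type, 20.2 ± 2.66 TPM in scl15 and 37.5 ± 3.27 TPM in the Napin:SCL15 line (SD, n = 3). Its overexpression change was not called after median-ratio scaling (limma adjusted p = 0.724), nor without wild type replicate 1 or 2 or overexpression replicate 1 or 2.

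SHP1, a MADS-box factor of the silique's dehiscence zone, was the 1 silique wall marker of 11 called lower in both lines as deposited (1.47% of all genes tested). It stood at 16.2 ± 4.26 TPM in wild type, 5.72 ± 0.438 TPM in scl15 and 9.91 ± 0.815 TPM in the Napin:SCL15 line (SD, n = 3). The overexpression change was not called after median-ratio scaling (limma adjusted p = 0.28) or without wild type replicate 2 (limma adjusted p = 0.0697). Without knockout replicate 2, 3 wall markers were lower in the pooled contrast and 2 in both lines. In the senescence list 3 of 12 genes, DIN2, ORE1 and SGR1, were lower in the pooled contrast (3.96% of all genes tested), each through the knockout. The count was 1 after median-ratio scaling or without wild type replicate 1 or 2.

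Late embryogenesis abundant (LEA) genes, which protect drying seeds, were called in opposite directions in 18 of 24 cases and nuclear photosynthesis genes in 32 of 38, against 5.01% of all genes tested. For photosynthesis genes the line medians were 0.71 in scl15 and -0.83 in the Napin:SCL15 line, and none was called in the pooled contrast. For LEA genes they were -1.73 and 0.83, and 6 of 24 were lower in the pooled contrast (3.96% of all genes tested), or 12 without knockout replicate 2. Without wild type replicate 1, wild type replicate 2 or knockout replicate 1 it was 4. EM6 (AT2G40170), a LEA gene and the opposite pair of largest pooled size, stood at 389, 496 and 321 TPM in wild type, at 16.5, 24.1 and 12.5 TPM in scl15 and at 743, 901 and 923 TPM in the Napin:SCL15 line. Its pooled log2 change of -1.68 (SE 0.18, limma adjusted p = 9.4e-05) is the mean of -4.45 and 1.104 and describes neither line. AT5G55135, AT1G17010, a 2-oxoglutarate oxygenase by its description, and AT3G22490, a seed maturation protein by its description, were of the same kind, with pooled log2 changes of -1.23, -1.20 and -1.19. Among 14 tested heat shock genes 2 were lower in the pooled contrast (3.96% of all genes tested). These were HSP17.4 and HSP17.6A (AT5G12030), with -3.10 and -3.07 in scl15 and 1.08 and 0.72 in the Napin:SCL15 line. Without wild type replicate 1 or 2 the heat shock count was 1.

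None of 12 seed storage, 8 oil body, 38 photosynthesis, 20 clock, 11 seed coat, 4 endosperm or 14 seed maturation regulator genes was called in the pooled contrast as deposited, and SCL15 was the only one of 18 GRAS genes. Without knockout replicate 2 the pooled contrast called 1 clock gene and 1 maturation regulator, and without overexpression replicate 3 it called 1 photosynthesis gene. In the touch, cold and wounding list 1 of 14 was lower (COR78) and 1 higher (KIN1), both through the knockout. The shares of all genes tested were 3.96% and 0.562%. Without wild type replicate 1 or 2 no gene of that list was lower. Examples with values near wild type in both lines are the maturation factor EEL, at 59.8 ± 12.9, 63.2 ± 19.1 and 56.7 ± 6.59 TPM in wild type, knockout and overexpression (SD, n = 3), and BZIP67, at 42.6 ± 8.49, 41.3 ± 11.4 and 45.6 ± 10.7 TPM. Their pooled log2 changes were -0.00 (SE 0.18) and 0.01 (SE 0.18), which leaves shared changes of moderate size undecided.

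**Figure D5:**
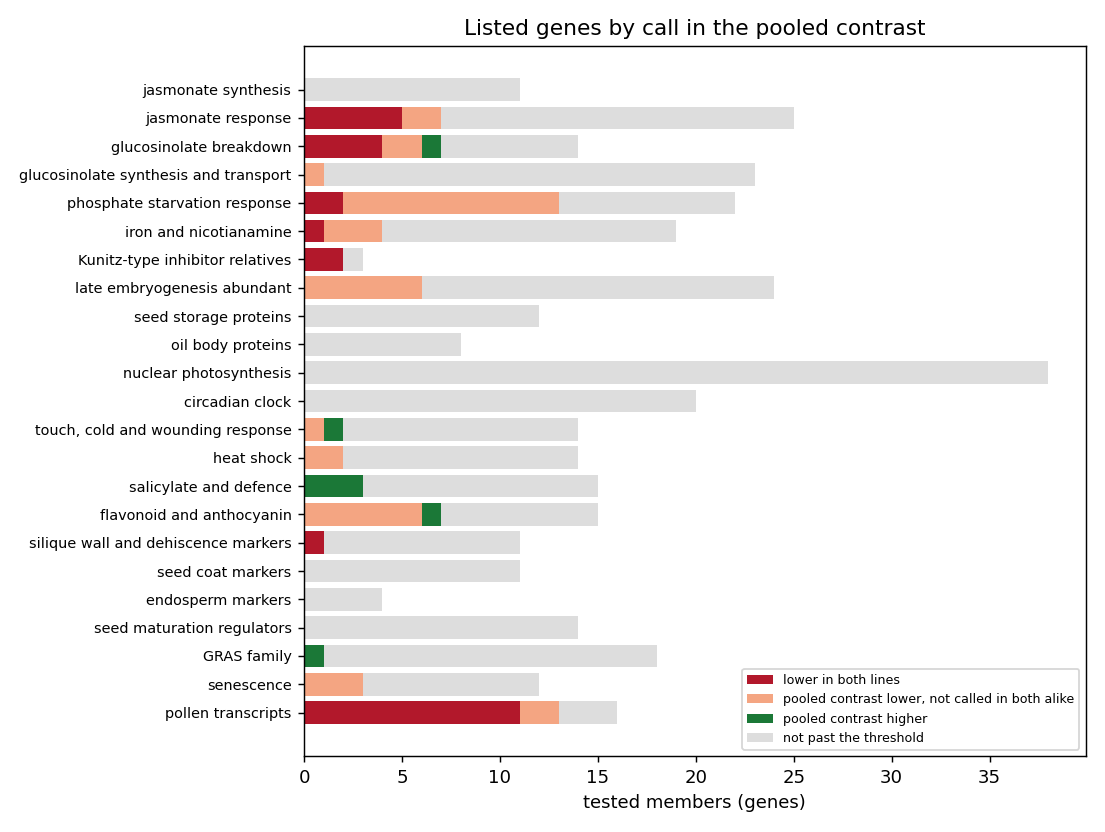
Number of tested genes in each of 23 lists (bar length), divided by their call in the pooled contrast. Red marks genes lower in both lines, 5 of 25 in the jasmonate response and 4 of 14 in glucosinolate breakdown, against 1.47% of all genes tested. Orange marks genes lower in the pooled contrast without a like call in both lines, 11 of 13 in phosphate starvation. Green marks genes higher in the pooled contrast and grey the rest.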

How the data were processed

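Gene expression was measured by RNA sequencing in 9 silique libraries, 3 per group. The authors deposited 1 table of TPM, per the file headers with 1 column per library. RNA was isolated with RNeasy columns and sequenced from TruSeq stranded kits, per the labels' protocols. Per the submitters' processing notes the genome was TAIR 10, while aligner, counter, strand use and filters were not given in the sources used here. TPM keep no depth, and a rise of abundant transcripts lowers all others, so median-ratio scaling was tried.

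With limma 3.58.1 (R 4.3.3, abundance trend, 6 residual degrees of freedom), log2(TPM + 1) was fitted once to all 9 libraries, with contrasts for both lines pooled, each line, and the lines against each other. Genes averaging 1 TPM or more were tested, with Benjamini-Hochberg adjustment over all of them and a threshold of 0.05. Fold changes, given on that log2 scale with a pseudocount of 1, understate changes of low genes. The fit was tested on simulated data. The gene rule, the lists and the comparison were chosen with earlier results of these data known.

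Named genes were SCL15, the 12 largest falls and up to 12 rises called in both lines under both scalings with non-overlapping groups and at least 5 TPM on the higher side (4 rises met this), up to 4 genes called in both lines per list or else its 2 most abundant, and the 4 largest pooled calls with opposite lines. Genes outside this rule were named after their values were seen. Positions and promoters are from TAIR10.1 (RefSeq), in which 16397 tested genes were found. Alternatives were scaling, pseudocount, level filter, trend, replicate block and left-out libraries. Tables and figures used Python 3.11.15, pandas 2.3.3 and matplotlib 3.10.9.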

Additional observations from a re-analysis of the deposited data

Results flagged for a closer look

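The genes considered here were the named genes called in both lines and the 4 named for opposite lines, with SCL15 left aside. Among them 22 differed between the lines by the direct limma contrast of overexpression minus knockout. Each was past an adjusted p of 0.05, on the log2(TPM + 1) scale. In 6 of these genes, all lower or higher in both lines, the overexpression line was the lower of the lines: ATSEH (-7.23), ESM1 (-2.52), NSP1 (-1.36), PBP1 (-0.68), PCR1 (-1.36) and PCC1 (-1.87). In 12 shared falls the knockout was lower: CORI3 (1.05), AT3G15650 (1.38), MRD1 (1.59), VSP1 (1.05), BGLU18 (1.05), VSP2 (0.67), MGD2 (0.76), FER1 (0.87), KTI1 (0.48), SHP1 (0.70), PME48 (1.01) and AT3G07850 (0.93). The 4 genes whose lines went in opposite directions had differences of 5.56 (EM6), 4.18 (AT5G55135), 4.21 (AT1G17010) and 4.44 (AT3G22490). The median of all genes tested was -0.38 on this scale as deposited and -0.01 after median-ratio scaling. No group had more than 3 libraries, so single libraries were not tested for standing apart from their group.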

How the results depend on the processing

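Counts of called genes moved with the processing. The pooled contrast, the genes called in both lines and those among them with a line difference numbered 748, 252 and 78. They became 405, 106 and 40 with median-ratio scaling, 452, 113 and 41 with quantile normalization, and 403, 100 and 37 after rescaling without seed storage, oil body and LEA genes, and 101, 134 and 143 of the pooled calls were then higher, against 93 as deposited. With all genes above 0 tested, 50 line differences were called. Asking for an adjusted p of 0.01 in both lines left 100 genes, and for changes of at least 2-fold in both 51. Leaving out 1 library gave 327 to 853 pooled calls, 129 to 278 genes called in both lines and 48 to 84 line differences, the lowest without wild type replicates 1 and 2 or overexpression replicate 1. Without knockout replicate 3 and overexpression replicate 3 together they were 829, 232 and 68. Same-numbered samples correlated by -0.06 to 0.35 in their deviations, 7 of 9 pairs over 0.1, and differently numbered samples by -0.39 to 0.11. Not every pair passed 0.1, and wild type replicate 1 and knockout replicate 1 did not correlate best with each other, so the numbers were not taken to pair the samples. A fit with the replicate number as a block gave 1469, 437 and 155, and pooled falls of 4 jasmonate synthesis, 14 LEA, 3 glucosinolate synthesis and 3 silique wall genes, against 0, 6, 1 and 1. Over 65 named genes and 1284 alternative values of the pooled change, 1250 kept their call, 22 became called and 12 were no longer called. The largest shared changes among these genes were chosen for being called under both scalings, so these totals do not measure how stable calls are. No gene called in either fit changed direction. Changes of sign in genes called in neither fit were not counted. The causes were not tested. With 3 libraries per group and TPM without depth, changes of genes near 1 TPM are the least certain.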

Other observations

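Beyond the lists, shared falls included genes of cell wall, calcium, auxin and nitrogen biology, named here after their values were seen. ANN1 and ANN4, annexins that bind membranes in the presence of calcium, stood at 61.7 ± 0.542, 31.0 ± 3.57 and 21.4 ± 0.514 TPM (ANN1) and at 16.5 ± 0.898, 8.85 ± 0.728 and 4.67 ± 1.02 TPM (ANN4) in wild type, knockout and overexpression (SD, n = 3). IAMT1, which methylates the auxin indole-3-acetic acid, and GH3.5, which conjugates it to amino acids, had pooled log2 changes of -1.02 (SE 0.14) and -0.76 (SE 0.11). SAT1, a serine acetyltransferase of cysteine synthesis, stood at 58.4, 60.1 and 52.1 TPM in wild type and between 23.57 and 31.0 TPM in all altered libraries. AMT1-2, an ammonium transporter, and AGP2, an arabinogalactan protein of the cell surface, changed by -1.05 (SE 0.17) and -1.20 (SE 0.13). OPR2, a 12-oxophytodienoate reductase that was not in the jasmonate synthesis list, changed by -1.12 (SE 0.11). Its neighbour OPR1, whose annotated span overlaps it so that reads may be shared, changed by -0.56 (SE 0.14).

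By deposited descriptions with at least 20 tested genes, the highest shares of genes lower in both lines were 4 of 22 invertase or pectin methylesterase inhibitor genes (18.18%), 6 of 38 pectin lyase-like genes (15.8%) and 3 of 27 glycine-rich protein genes (11.1%), against 1.47% of all genes tested. These shares were ranked after seeing the data and were not tested. The inhibitor genes AT5G46950 and AT5G46960, neighbour each other on chromosome 5 and had pooled log2 changes of -1.27 and -1.91. AT4G23670 and AT4G23680, polyketide cyclase-like neighbours on chromosome 4, differed in order: AT4G23670 averaged 364, 191 and 64.1 TPM in wild type, knockout and overexpression, and AT4G23680 50.3, 8.27 and 20.6 TPM. Of 242 placed falls, 28 (11.6%) lay within 5 annotated genes of another fall, in 14 pairs, and the share of tested genes that fell ran from 1.24% to 1.64% over the 5 chromosomes.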
